A study of Mus musculus with 11 samples.

Results

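The genes examined here encode the subunits of the AMP-activated protein kinase (AMPK), its upstream kinase, and the stress proteins that restrain the growth kinase complex mTORC1. They were taken by symbol: every probe of the array annotated to Prkaa1, Prkaa2, Prkab1, Prkab2, Prkag1, Stk11, Ddit4, Sesn1, Tsc1 or Tsc2. The 10 genes had 17 probes of the 45281 on the array, and 14 of the 17 passed the filter on dim probes that left 16978 probes for testing. Expression was measured in total liver RNA of female C57Bl/6 mice on Illumina BeadChips, 1 array per animal. The vehicle controls numbered 3, and the labels do not say when they were killed. A further 4 mice received 5'-adenosine monophosphate (5'-AMP), a nucleotide that the series uses to induce hypometabolism, at 0.5 mg per g of body weight, and were killed 6 h later (a group named AIHM). Another 4 were killed 12 h after that dose and carry the name RF or Rev Flip, which the labels do not explain. The ages of the animals are not given in the sources used here.

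AMPK is a trimer of a catalytic alpha, a scaffolding beta and a nucleotide-binding gamma subunit. AMP binding to gamma favours the active, phosphorylated form, and the kinase LKB1, encoded by Stk11, phosphorylates the activation loop of alpha. In liver, active AMPK restrains fatty acid, cholesterol and glucose synthesis. It also restrains mTORC1 through the TSC complex, the brake formed around the proteins of Tsc1 and Tsc2, on which the stress protein of Ddit4 (REDD1) also acts. Sestrin 1, the protein of Sesn1, restrains mTORC1 through the amino acid sensing branch. The array reports mRNA only, so kinase activity was not measured.

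The promoter windows of Ddit4 and Sesn1 are shown because a probe of each was called at 12 h. Sesn1 also has 2 annotated starts, and its probes were not all called. Each window runs from 250 bases before to 50 bases after the annotated start, 5′ to 3′ on the gene's strand, from RefSeq on GRCm38.p6. Capitals mark the hypoxia response core (ACGTG), the CCAAT box, which reads ATTGG where it lies on the other strand, and the p53 decamer motif, each searched on both strands. The windows lie at chr10:59951721-59952020 on the minus strand (Ddit4), chr10:41810324-41810623 on the plus strand (first Sesn1 start) and chr10:41887189-41887488 on the plus strand (second Sesn1 start).
Ddit4: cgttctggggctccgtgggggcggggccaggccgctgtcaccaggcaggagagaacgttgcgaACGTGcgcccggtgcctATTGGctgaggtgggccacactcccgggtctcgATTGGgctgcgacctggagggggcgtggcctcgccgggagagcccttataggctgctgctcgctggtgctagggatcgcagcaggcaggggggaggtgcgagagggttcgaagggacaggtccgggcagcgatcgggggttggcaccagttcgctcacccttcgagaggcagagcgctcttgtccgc
Sesn1, first start: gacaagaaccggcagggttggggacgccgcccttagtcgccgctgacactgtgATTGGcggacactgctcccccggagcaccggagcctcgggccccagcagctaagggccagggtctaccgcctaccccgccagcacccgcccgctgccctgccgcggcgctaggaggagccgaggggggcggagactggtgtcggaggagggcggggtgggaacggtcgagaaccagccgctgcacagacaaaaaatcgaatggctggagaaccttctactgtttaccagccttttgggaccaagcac
Sesn1, second start: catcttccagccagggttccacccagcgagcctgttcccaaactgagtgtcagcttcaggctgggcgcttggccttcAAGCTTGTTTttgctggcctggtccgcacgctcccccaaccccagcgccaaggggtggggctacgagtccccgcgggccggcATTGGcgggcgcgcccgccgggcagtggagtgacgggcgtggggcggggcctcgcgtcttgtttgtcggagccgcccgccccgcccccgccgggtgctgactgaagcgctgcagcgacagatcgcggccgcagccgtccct

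The Ddit4 window held 1 hypoxia response core, at position -187 from the annotated start, and 2 CCAAT boxes. Of the 32851 RefSeq windows of this length, 19.6% held the core and 37.4% a CCAAT box, so neither match is rare. Both Sesn1 windows held 1 CCAAT box, and of these the second held a p53 decamer motif, as 8.36% of all windows did, and the shorter cyclic AMP response motif (TGACG), as 20.8% did. None of the 3 windows held the E-box (CACGTG), which contains the hypoxia core, the TATA box (TATAAA) or the AP-1 site (TGANTCA). The full cyclic AMP response element (TGACGTCA), which contains the shorter one, the C/EBP-ATF composite (TGATGNAAN) and the short glucocorticoid receptor motif (AGAACA) were also without a match. The files do not place the probes on the transcripts, so no probe could be assigned to either Sesn1 start.

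Liver identity was clear from its markers: all 5 hepatocyte genes (Alb, Ttr, Apoa1, Cps1 and Tat) were on the array, and 4 were detected on every array. The mean signal of a control array was 422 to 542 intensity units, that of a 6 h array 458 to 635 and that of a 12 h array 412 to 494. Precision is limited by how many arrays there were. Deposited signals below are in these units. Tests used the background-corrected, quantile-normalised log2 intensities in 1 limma fit of all 11 arrays, with p-values adjusted by the method of Benjamini and Hochberg over the 16978 probes and a threshold of 0.05. Errors of log2 fold changes are standard errors, with n of 3 control arrays and 4 at each time.

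Ddit4 was the member that moved most. Its deposited signal on the 3 control arrays was 485, 429 and 487. At 6 h it was 881, 1242, 899 and 841 in the 4 animals, and at 12 h 1470, 1682, 2118 and 2560. The 3 groups did not overlap: every 6 h array was above every control, and every 12 h array above every 6 h array. On the normalised log2 scale the levels were 8.69 ± 0.37 (SD, n = 3) in controls, 9.61 ± 0.27 (SD, n = 4) at 6 h and 11.03 ± 0.31 (SD, n = 4) at 12 h.

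At 12 h Ddit4 rose 5.08-fold over control, a log2 fold change of 2.35 ± 0.22 (95% interval 1.88 to 2.81, limma adjusted p = 4.87e-05). At 12 h it was also higher than at 6 h, by 1.43 ± 0.20 (limma adjusted p = 0.00722). At 6 h the difference from control was 0.92 ± 0.22, a fold of 1.89, and it missed the threshold over all probes (unadjusted p = 0.00107, limma adjusted p = 0.0787). The Ddit4 difference at 6 h passed without 6 h array 4 (1.05, adjusted p = 0.0394), without background correction (0.81, adjusted p = 0.0463) and with a trended, robust variance (adjusted p = 0.0413). Over 22 alternatives it ran from 0.74 to 1.11, with adjusted p of 0.0394 to 0.226.

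**Figure D1:**
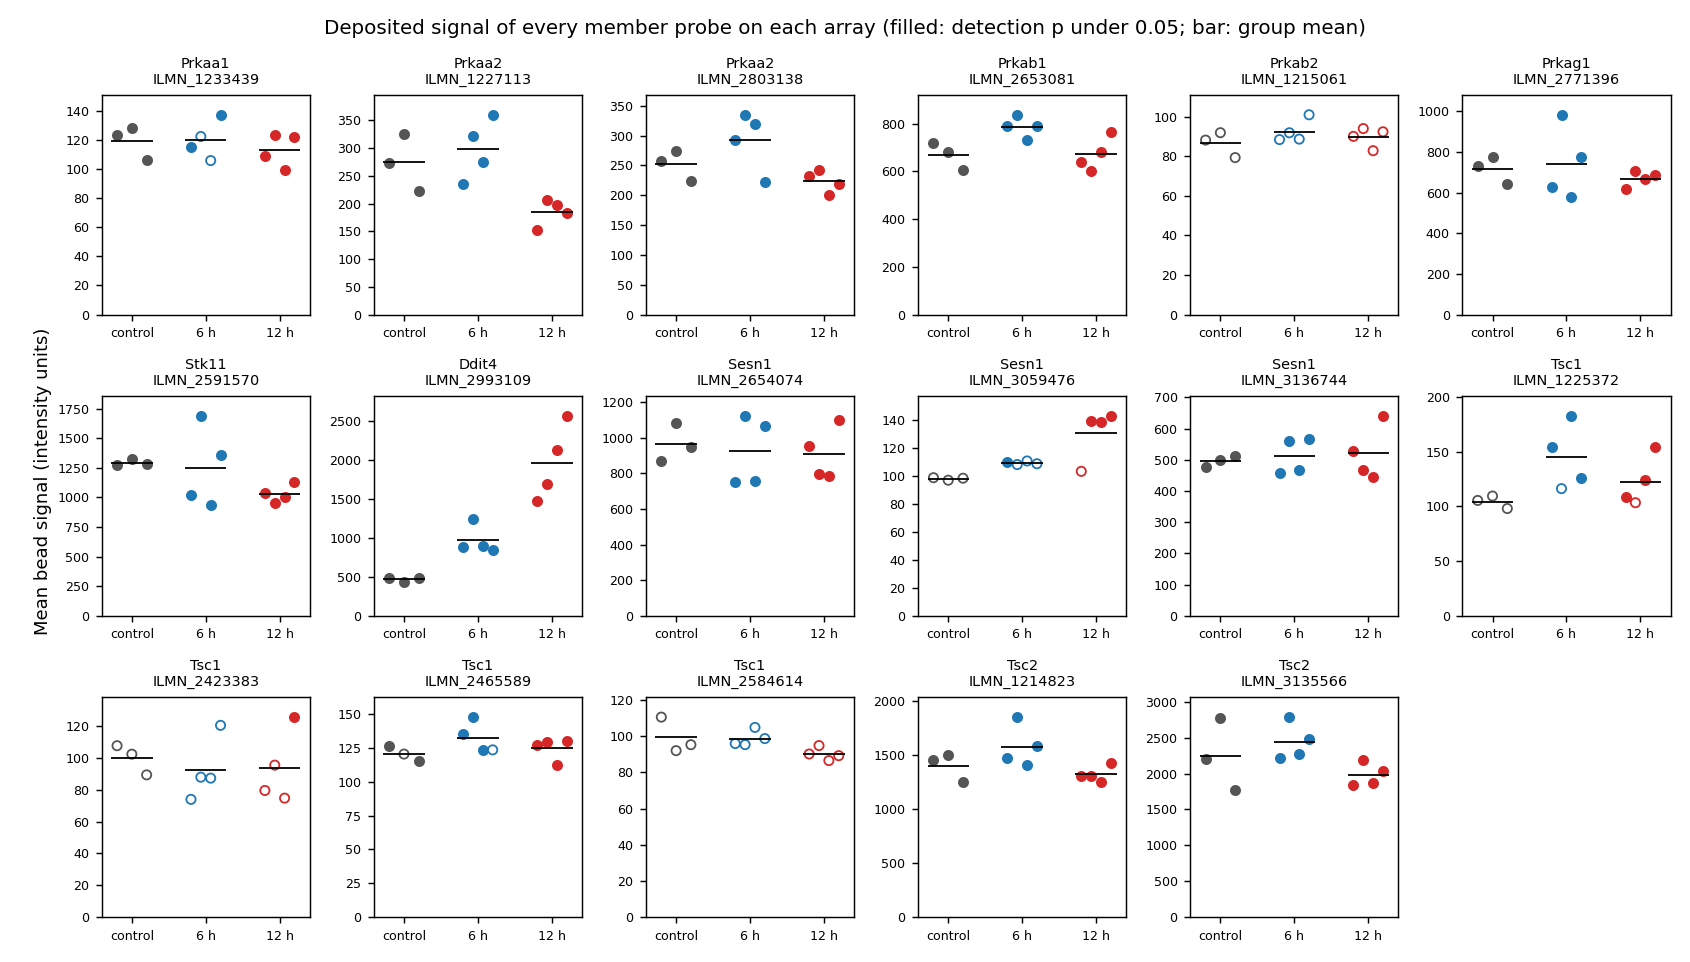
Deposited mean bead signal (y, intensity units, each panel from 0) of all 17 probes in controls, at 6 h and at 12 h after 5'-AMP, 1 point per array. Filled points had a detection p under 0.05, open points did not, and bars are group means; Ddit4 climbs from 429 to 487 in controls to 1470 to 2560 at 12 h, while most other panels overlap.

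The arrays lay on 5 chips, and 3 of them held a control. Within the 3 chips Ddit4 at 6 h exceeded the control by 0.63, 1.46 and 0.56 log2 units. On the 2 chips that held a control and a 12 h array it exceeded the control by 2.48 and 2.65, and the 6 h array by 1.02 and 2.09. With chip as a fixed block Ddit4 gave 2.49 at 12 h (adjusted p = 0.0033) and 1.64 between the times (adjusted p = 0.113), so the call between the times ended. The fixed block cut the residual degrees of freedom from 8 to 4, and with it 7 of all probes were called between the times, against 148 without it. It also left 12 h arrays 1 and 3, each alone on its chip, without weight in the contrasts.

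**Figure D2:**
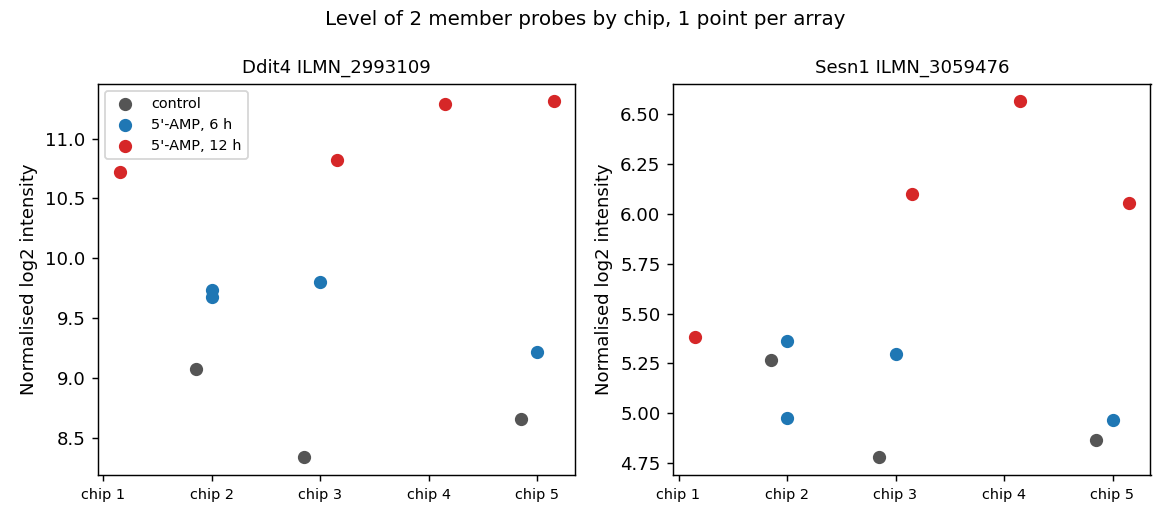
Normalised log2 intensity (y) of the Ddit4 probe and of Sesn1 probe ILMN_3059476 by chip (x), 1 point per array, coloured by group. On both chips that hold all 3 groups Ddit4 is lowest in the control and highest at 12 h.

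Summed background-corrected signals of several marker lists of 5 genes each also differed between the groups. That of the neutrophil genes was 69.4 to 123 in controls, 168 to 585 after 6 h and 150 to 341 after 12 h. Of these 5, 1 rose at each time, 1 was detected on every array, and Mpo and Ngp were detected on none. Neutrophil sums at 12 h overlapped those at 6 h. Stellate cell genes summed to 2190 to 2428 in controls, 2832 to 3147 after 6 h and 1734 to 2251 after 12 h, with 1 called lower at 12 h. After 12 h Kupffer cell genes summed to 1148 to 1507 (controls 1706 to 2463), T and NK cell genes to 65.2 to 86.5 (controls 117 to 137) and B cell genes to 75.9 to 83.5 (controls 101 to 124), with no gene of these 3 lists called. For all 3, the sums after 6 h overlapped the controls. The hepatocyte genes summed to 84596 to 91907 in controls, 70780 to 100910 after 6 h and 87179 to 98564 after 12 h. In whole liver a change in the number of cells of a type and a change in RNA per cell cannot be told apart, and the part of these cells in the Ddit4 values was not tested.

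The probes with the pattern most like Ddit4 over the 11 arrays, among the 11632 probes compared, belonged to Midn, Cebpb and Per (now Per1). Their Pearson correlations with Ddit4 were 0.982, 0.981 and 0.972, a description over 3 groups that share their controls. Midn, which encodes midnolin, changed by 0.36 at 6 h (limma adjusted p = 0.259) and rose by 1.28 at 12 h (limma adjusted p = 0.000365). Cebpb, a transcription factor of the acute phase response, rose by 0.79 at 6 h (limma adjusted p = 0.0289) and 1.63 at 12 h (limma adjusted p = 4.29e-05). The clock repressor Per1 rose by 1.59 at 6 h (limma adjusted p = 0.00716) and 3.65 at 12 h (limma adjusted p = 2.75e-06).

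Sesn1 gave a divided picture across its 3 probes. Probe ILMN_3059476 was dim: its signals were 98.9, 97.1 and 98.5 in controls, 110, 108, 111 and 109 at 6 h, and 103, 140, 139 and 143 at 12 h. It was detected on none of the 3 control arrays, 1 of 4 at 6 h and 3 of 4 at 12 h, so it passed the filter largely through the group where it was high. As deposited, 12 h array 1 lay below the 6 h arrays and the other 3 lay above them, and after normalisation all 4 lay above every control and every 6 h array.

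By this probe Sesn1 was at least 1.56-fold higher at 12 h than in controls (fitted log2 fold change 1.05 ± 0.24, limma adjusted p = 0.0335). The bound sets the 12 h mean against the lowest detected signal of each control array, or the probe's own value where higher. The Sesn1 call ended without control 1 or 2 or without 12 h array 2, 3 or 4 (log2 fold changes of 0.88 to 1.05, adjusted p of 0.0651 to 0.13), and also with median centring (adjusted p = 0.0572) and without a filter (adjusted p = 0.0928). At 6 h this probe gave 0.18 ± 0.24 (limma adjusted p = 0.758).

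The other Sesn1 probes were bright and detected on every array. ILMN_2654074 read 869, 1084 and 946 in controls, 752, 1123, 759 and 1069 at 6 h, and 956, 795, 785 and 1099 at 12 h. ILMN_3136744 read 478 to 513 in controls, 458 to 567 after 6 h and 445 to 640 after 12 h. Neither was called: at 12 h they gave 0.03 ± 0.14 (95% interval -0.28 to 0.35) and 0.19 ± 0.16 (-0.16 to 0.54) against control. At 6 h they gave -0.33 ± 0.14 and -0.21 ± 0.16, with limma adjusted p of 0.284 and 0.56. The change of dim probe ILMN_3059476 at 12 h exceeded theirs by 1.02 and 0.87 log2 units. An exact permutation test gave p = 0.0571 for each, the smallest possible with these arrays (adjusted p = 0.137 over 12 comparisons).

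The 3 probes most like ILMN_3059476 were those of Centg2 (now Agap1), Dll1 and Zbtb16, with Pearson correlations of 0.955, 0.936 and 0.922 over the 11 arrays. None of the 3 was called at 12 h: Centg2 gave 0.54 (adjusted p = 0.133), Dll1 0.69 (adjusted p = 0.0508) and Zbtb16 0.49 (adjusted p = 0.187).

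None of the AMPK subunit probes was called at either time. Of the catalytic subunits, Prkaa2, which encodes alpha 2, had 2 probes detected on all 11 arrays. ILMN_1227113 read 273, 326 and 223 in controls, 236, 322, 275 and 360 at 6 h, and 152, 206, 198 and 183 at 12 h. All 4 arrays at 12 h were below the 3 controls.

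By ILMN_1227113 Prkaa2 differed from control by -0.74 ± 0.18 at 12 h (95% interval -1.14 to -0.34), which narrowly missed the threshold (unadjusted p = 0.00171, limma adjusted p = 0.0571). The difference passed in 5 of 21 alternatives, among them the fit without 12 h array 3 (-0.87, adjusted p = 0.0226). Within the 2 chips that hold both groups it was -0.66 and -0.88. At 6 h the same probe gave -0.12 ± 0.18.

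The second Prkaa2 probe, ILMN_2803138, read 257, 274 and 224 in controls, 293, 335, 320 and 222 at 6 h, and 232, 243, 200 and 218 at 12 h. Its difference at 12 h was -0.15 ± 0.23 (95% interval -0.66 to 0.36, limma adjusted p = 0.802). Its arrays overlapped in every comparison. Both Prkaa2 probes were thus below control at 12 h on average, and the size of the difference was not the same by each. Compared directly, the 2 probes did not differ past the threshold (exact permutation p = 0.0571, the smallest possible, adjusted p = 0.137).

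Prkaa1, which encodes alpha 1, was close to background. Its probe read 106 to 128 in controls, 106 to 137 after 6 h and 99.0 to 124 after 12 h, and was detected on 3 of 3, 2 of 4 and 4 of 4 arrays. It differed from control by -0.17 ± 0.13 at 6 h and -0.03 ± 0.13 at 12 h.

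The beta 1 scaffold gene Prkab1 read 608 to 721 in controls, 732 to 837 after 6 h and 600 to 764 after 12 h. The deposited signals at 6 h all lay above the controls, but after normalisation the groups overlapped (0.01 ± 0.15 at 6 h and 0.13 ± 0.15 at 12 h). Prkab2, which encodes beta 2, read 79.4 to 101 over all 11 arrays, not above background on any, and was not tested. The gamma 1 gene Prkag1 read 640 to 773 in controls, 579 to 983 after 6 h and 615 to 708 after 12 h, with differences of -0.23 ± 0.12 (limma adjusted p = 0.386) and 0.03 ± 0.12 (limma adjusted p = 0.948).

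At 12 h the 95% intervals of the 4 tested AMPK subunit probes other than ILMN_1227113 reached from a fold of 0.634 to 1.38, and at 6 h those of all 5 from 0.694 to 1.41. Doublings and halvings thus lay outside each of these intervals, whereas changes inside the limits could not be told from none. The 12 h interval of Prkaa2 ILMN_1227113 reached down to a fold of 0.454, so a halving lay inside it. Prkab2 was not tested.

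Stk11, which encodes LKB1, read 1275, 1328 and 1280 in controls, 1019, 1689, 939 and 1355 at 6 h, and 1036, 956, 1007 and 1129 at 12 h. All 4 signals at 12 h were under the lowest control, but on the normalised scale these groups overlapped and the 6 h arrays instead lay below the controls. The differences were -0.32 ± 0.13 at 6 h (unadjusted p = 0.0302, limma adjusted p = 0.259) and -0.20 ± 0.13 at 12 h (limma adjusted p = 0.451). Neither passed.

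The TSC complex genes differed in how well the array saw them. Both Tsc2 probes, for the subunit that acts on the GTPase RHEB, were bright: ILMN_1214823 read 1250 to 1498 in controls, 1411 to 1851 after 6 h and 1246 to 1429 after 12 h. ILMN_3135566 read 1770 to 2768, 2213 to 2787 and 1837 to 2190 in the same order. The Tsc2 differences from control lay between -0.08 and 0.04 at both times, and at 12 h both intervals stayed within a fold of 0.798 to 1.24.

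Tsc1, which encodes the partner that stabilises the Tsc2 protein, had 4 probes, all of them dim. ILMN_1225372 read 105, 109 and 98.1 in controls, detected on none, and 155, 116, 183 and 126 at 6 h, detected on 3 of 4. At 12 h it read 108, 103, 124 and 154, again detected on 3 of 4 arrays. The Tsc1 signals at 6 h were all above the controls as deposited, but the normalised values overlapped.

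By ILMN_1225372 the fitted Tsc1 differences were 0.82 ± 0.39 at 6 h (95% interval -0.04 to 1.67) and 0.64 ± 0.39 at 12 h (-0.21 to 1.49), which did not pass (limma adjusted p of 0.336 and 0.423). The probe passed the filter only through the treated arrays. Against the lowest detected signals of the controls, taken as for Sesn1, its group means were 1.46-fold and 1.30-fold higher at 6 h and 12 h. ILMN_2465589 was detected on 9 of the 11 arrays (2 of 3 controls, 3 of 4 at 6 h and 4 of 4 at 12 h), between 112 and 148 units, and gave 0.06 ± 0.19 and 0.24 ± 0.19. ILMN_2423383 was detected on 1 array and ILMN_2584614 on none, and neither was tested.

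**Figure D3:**
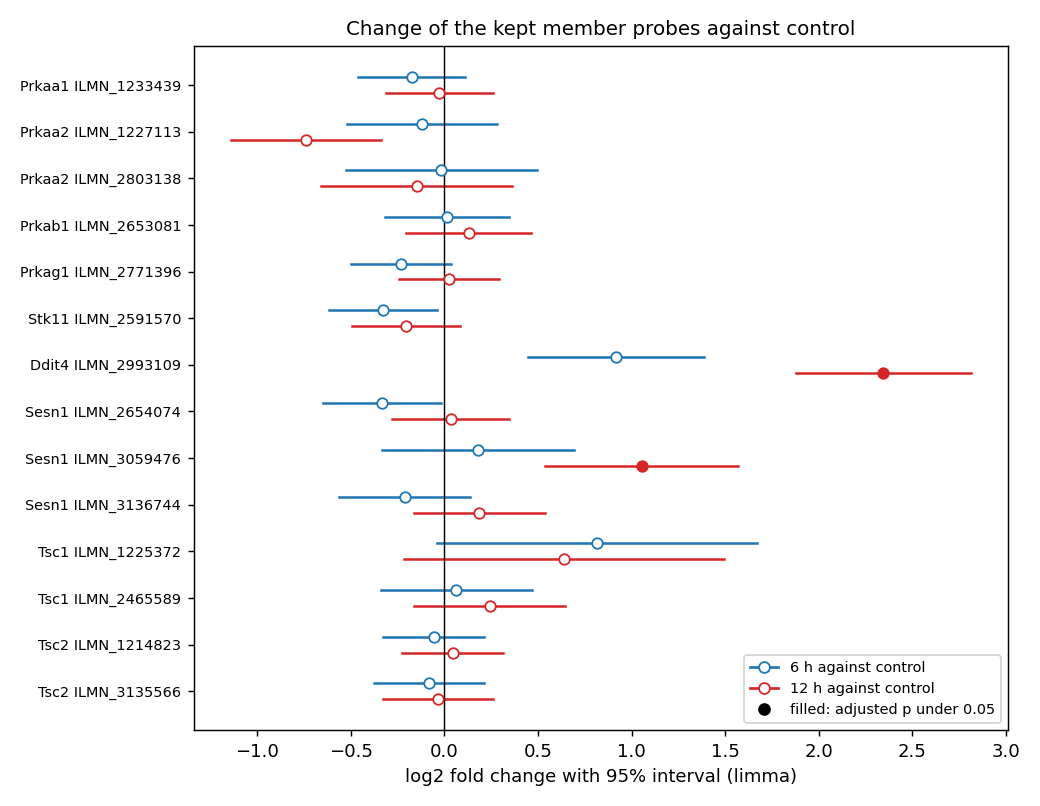
Log2 fold change against control (x) with 95% intervals from the limma fit for the 14 tested member probes (y), at 6 h and 12 h. Filled points passed an adjusted p of 0.05: Ddit4 and 1 of 3 Sesn1 probes at 12 h, and none at 6 h.

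Counted over the 14 tested probes, none was called at 6 h, where 0.807% of all probes were, and 3 had an unadjusted p under 0.05. At 12 h 2 were called, both higher (Ddit4 and Sesn1 ILMN_3059476), where 2.69% of all probes were called and 1.63% called higher. That Sesn1 probe passed the filter largely through the 12 h arrays, where it was high, so its call is no support for this count. Between the times 1 was called, Ddit4, which was higher at 12 h, against 0.872% of all probes called and 0.471% called higher. The median log2 fold change of the 14 probes was -0.07 at 6 h and 0.04 at 12 h, beside -0.01 and -0.02 over all probes. Groups did not overlap on the normalised scale for 3 of the 14 at 6 h (13.3% of all probes), 3 at 12 h (20.5%) and 4 between the times (9.15%). Of those 4, 3 were the Sesn1 probes, which share a gene and, with Ddit4, were all higher at 12 h than at 6 h, as 3.49% of all probes were. The counts are small, and both comparisons with control share the same 3 control arrays.

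The rest of the pathway was taken as 96 listed genes, of which 74 had a tested probe (115 probes). At 6 h 1 gene rose and 1 fell, and at 12 h 2 rose and 1 fell. By probes this was 1.74% called at 6 h and 4.35% at 12 h, beside the 0.807% and 2.69% of all probes. At 12 h, 3 of the called probes belonged to 1 gene, Mlst8.

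Among the 10 tested AMPK-related kinases, which LKB1 also activates, Sik1 (Snf1lk on the array), a kinase that restrains CREB coactivators, was the 1 that rose. Its signal was 124 to 126 in controls, 281 to 455 after 6 h and 557 to 615 after 12 h, with no overlap between any groups. It rose by 2.33 ± 0.28 at 6 h (limma adjusted p = 0.00117) and 3.44 ± 0.28 at 12 h (limma adjusted p = 1.67e-05). The median of this list was 0.05 at 6 h and 0.13 at 12 h.

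Among the 11 tested genes of the mTOR complexes and their activators, Mlst8 (Gbl on the array), the subunit shared by mTORC1 and mTORC2, fell. Probe ILMN_1238928 read 534 to 672 in controls, 388 to 615 after 6 h and 249 to 266 after 12 h. All 3 Mlst8 probes fell at 12 h, by 1.38, 1.27 and 1.09 on the log2 scale (limma adjusted p = 5.37e-05, 0.00072 and 0.00107).

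At 6 h only ILMN_1238928 of the Mlst8 probes was called (-0.65 ± 0.13, limma adjusted p = 0.0385). The other 2 gave -0.61 and -0.42 (limma adjusted p = 0.106 and 0.203), each with every 6 h array below every control. The 6 h call of ILMN_1238928 ended without any single control, without 6 h array 1, 3 or 4 and without 12 h array 1, 2 or 4 (Gbl log2 fold changes of -0.69 to -0.60, adjusted p of 0.054 to 0.162). It ended too with median centring (adjusted p = 0.0522), with only the compared groups (0.146) and with chip as a fixed block (0.0671). The 12 h call of ILMN_1238928 held in all 21 alternatives, at -1.45 to -1.13, and the other 2 probes were not run under them. The median of this list was -0.21 at 6 h and -0.18 at 12 h, and Mtor itself (Frap1) gave 0.69 (adjusted p = 0.127) and 0.12 (adjusted p = 0.729) by its 2 probes at 12 h.

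The 12 tested genes of autophagy start and growth control held 1 called gene, at 12 h against control and between the times. Foxo3, a transcription factor of autophagy and stress resistance genes, was below background on every control array (89.5 to 116) and read 144 to 205 at 12 h, at least 2.48-fold higher by the group means (limma adjusted p = 0.0042). It was detected on 2 of 4 arrays at 6 h and 4 of 4 at 12 h, so it passed the filter only through the group where it was high, and the call is no support for the list. With chip as a fixed block the Foxo3 call ended, at 1.37 (adjusted p = 0.174). Between the times Foxo3 gave 1.17 (limma adjusted p = 0.0404), a call lost in 12 of 21 alternatives, 7 of them without a single array. Over all 21 alternatives it ran from 0.58 to 1.33, with adjusted p of 0.0241 to 0.48. Ulk1, the autophagy kinase that AMPK phosphorylates, gave 0.41 and 0.43 at 12 h by its 2 probes (adjusted p of 0.136 and 0.187). The medians of the list were 0.15 and 0.12.

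The other lists held no call at either time. In the 10 tested mTORC1 inhibitors outside the members (medians -0.04 and 0.02), Sesn2, the stress-induced sestrin, was detected on no control array and on all 8 treated arrays. It thus passed the filter only through the treated arrays, and at 12 h it gave 0.55 ± 0.14 (limma adjusted p = 0.0523, and 0.0359 to 0.264 over the alternatives). Against the lowest detected signals of the controls, taken as for Sesn1, its 12 h mean was 1.27-fold higher. The 8 tested genes of other AMPK subunits and upstream partners had medians of 0.14 and 0.13. Stradb (Als2cr2), the LKB1-binding pseudokinase, had the smallest p there, at 0.30 (adjusted p = 0.25) and 0.38 (adjusted p = 0.129).

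The 13 tested metabolic substrates of AMPK had medians of -0.10 and 0.02. Mlxipl, which encodes the carbohydrate response factor ChREBP, had the smallest p at 6 h (0.56, adjusted p = 0.134) and the glycogen synthase gene Gys2 at 12 h (0.84, adjusted p = 0.129). Of the 10 tested mTORC1 outputs (medians 0.02 and -0.02), the translation repressor Eif4ebp1 had the smallest p at 6 h (-0.46, adjusted p = 0.163). The initiation factor Eif4b had it at 12 h (adjusted p = 0.352). Among the other mTORC1 inhibitors, Akt1s1, which encodes the mTORC1 subunit PRAS40, had it at 6 h (-0.48, adjusted p = 0.136), and among the autophagy genes Becn1 did (0.31, adjusted p = 0.222).

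**Figure D4:**
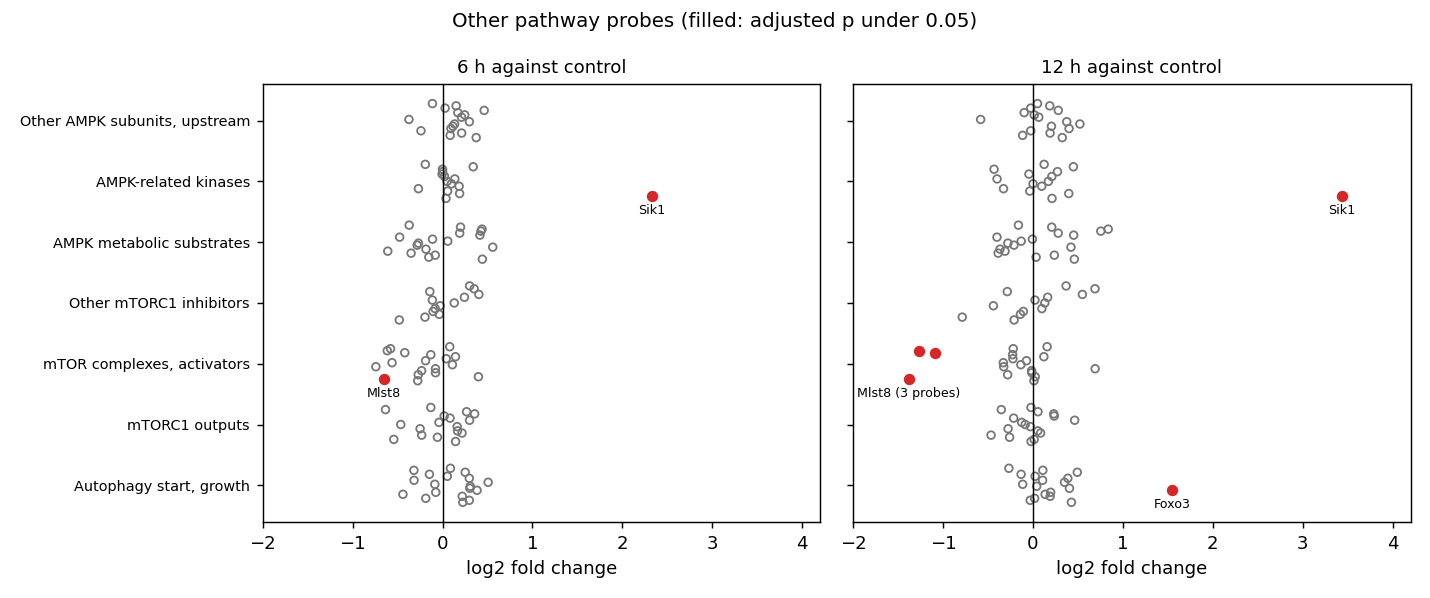
Log2 fold change against control (x) of the 115 tested probes of 74 other pathway genes, by list (y), at 6 h and at 12 h. Filled points passed an adjusted p of 0.05: Sik1 and Mlst8 at both times and Foxo3 at 12 h, with all others between -1 and 1.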

How the data were processed

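Per the file headers, the authors' non-normalised table gives each probe a mean bead signal, an intensity on a linear scale, and a detection p-value on each array. The submitters' processing notes name GenomeStudio; its version, the genome build and the annotation are not given in the sources used here. The deposited normalised table, also an intensity, was judged from its values to be background-subtracted and quantile-normalised, and served as an alternative.

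Signals were corrected with normexp from the detection p-values (offset 16), then quantile-normalised on the log2 scale (neqc, limma 3.58.1, R 4.3.3). Probes detected (p under 0.05) on 3 arrays or more were fitted as 3 group means with 8 residual degrees of freedom. Tested on data made with known answers for 16978 probes, the fit found 70 of 100 changes of 1 log2 unit for 6 h against control. It made 6 false calls. The noise of the made data was independent between arrays, with no chip effect, so recovery on the real arrays may differ.

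The members, lists and naming rule were chosen with earlier results of these data known. Every member probe is named. Of each list, up to 3 called genes of largest change per comparison with control are named, or else the gene of smallest p; Mtor and Ulk1 were added after their values were seen. 1 marker list is not reported here. Likeness is the Pearson correlation over 11 arrays among probes with a gene symbol. Older symbols were matched through RefSeq synonyms, and promoter windows were found for all 10 members. The labels number the mice, and no pair of replicates shared an identical signal. Same-numbered arrays did not deviate together as a rule (correlations of -0.213 to 0.455), so the numbers were not taken as pairs. Differently numbered arrays gave -0.411 to 0.299. All correlations between arrays of the same chip were above zero (0.017 to 0.455), and the highest of all was among them.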

Additional observations from a re-analysis of the deposited data

Results flagged for a closer look

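Ddit4 was higher by 1.43 log2 units at 12 h than at 6 h (limma adjusted p = 0.00722). Both times share the same controls, so this is the contrast between the times already given above. With chip as a fixed block its limma adjusted p was 0.113. The labels name no controls for each time, so an effect of 5'-AMP cannot be told apart from other differences between these groups. A single array stood apart in 1 of 34 groups of 4 arrays tested for an outlying value, and chance flags about 1 in 20 groups. For Tsc1 probe ILMN_2423383, 12 h array 4 read 126 units against 74.8 to 95.6 on the other 3, a gap of 0.869 of the group's log2 range. It was the 1 array on which this probe was detected.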

How the results depend on the processing

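No named result turned its sign past the threshold. Over 75 results on named probes and 1608 alternative fits, 1553 kept their side of the threshold, 38 lost a call and 17 gained one. The count of member probes called at 6 h (0) became 1 (Ddit4) when the background was left uncorrected and when the variance was trended and robust, and was 0 to 1 when single arrays were left out. At 12 h the count of 2 became 1 with median centring, without a filter and with one probe per gene, and 1 to 2 without single arrays. It became 3 with uncorrected background, with the trended variance and with chip as a random block. Between the times the count of 1 became 0 with chip as a fixed block and was 1 to 2 without single arrays. In the 3 fits with 1 call at 12 h the first 3 of these 12 h fits the dim Sesn1 probe missed the threshold or was not among the probes tested; with the stricter filter it was also untested, while Prkaa2 ILMN_1227113 passed. The cause of these changes was not tested. With the replicate block 0 member probes were called for 6 h, 2 for 12 h and 1 for 12 h against 6 h, and Ddit4 gave 0.94, 2.36 and 1.43; among the named calls it ended Mlst8 (Gbl) at 6 h and Foxo3 between the times (adjusted p = 0.0564). Of all probes 137 were called for 6 h, 456 for 12 h and 148 for 12 h against 6 h. At 6 h the count was 289 with uncorrected background, 62 with only the compared groups, 250 with the trended variance, 67 and 231 with chip as a fixed or random block, and 69 to 224 without single arrays. At 12 h it was 301 with the stricter filter, 896 with only the compared groups, 159 with the fixed chip block and 268 to 549 without single arrays. Between the times it was 260 with uncorrected background, 230 with the trended variance, 7 with the fixed chip block and 57 to 158 without single arrays. Dim probes (Prkaa1, Prkab2, Sesn1 ILMN_3059476 and all of Tsc1) limit what can be said of those genes.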
